A study of Mus musculus with 2 samples.

Results

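Divergent head-to-head pairs are neighbouring genes on opposite strands whose transcription runs outward from a shared start region. Among 20780 protein-coding genes on mouse chromosomes 1 to 19 (GENCODE release M21, GRCm38, the assembly also called mm10), 1130 such pairs were found, holding 2260 genes or 10.9% of the total. A pair was kept when its annotated starts lay at most 1 kb apart and its bodies overlapped by no more than 1 kb. Where a gene had several candidate partners, the closest was used, which left out 35 of 1165 candidates. The starts were a median of 178 bp apart. The bodies overlapped in 422 pairs and shared no base in 708. In 443 pairs another coding gene touched the body of a partner, and peaks there cannot be assigned to 1 gene.

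Trimethylation of lysine 36 of histone H3 (H3K36me3) was measured by chromatin immunoprecipitation and sequencing in C57BL/6J bone marrow-derived macrophages, primary cells grown from marrow, that had not been stimulated. The series had 1 group, with biological replicates 1 and 2, each from 10 ng of DNA with fragments of 350 to 480 bp. Sex and age were given as not collected, and both replicates carry 1 donor identifier, so their spread may be technical. With a single group there was no contrast between conditions: the question taken up here is whether the partners of a pair carried the mark together, and every comparison is between genes or between replicates, given as a description without a test.

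H3K36me3 is laid down behind elongating RNA polymerase II, chiefly by the methyltransferase Setd2, so it marks the bodies of transcribed genes and is low at their starts. A divergent pair places a promoter, usually a CpG island, between a pair of genes that are transcribed away from each other. Many pairs join genes of general cell upkeep, such as those for mitochondrial ribosomal proteins or for the chaperonins Hsp60 and Hsp10.

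The sequence between the annotated starts is shown for 7 pairs that represent the states described below. Glyr1/Ubn1, Bag1/Chmp5, Safb2/Safb, Slc39a7/Rxrb and Pcid2/Cul4a had both genes covered in both replicates, the last with a wide peak-free gap and the one before it with a narrow gap. 1810024B03Rik/Snrnp200 and Rbak/Spdye4b had 1 covered partner and 1 without any peak. Each sequence is the plus strand of GRCm38, 5′ to 3′, so the first gene named starts at its left end and reads to the left, and the second starts at its right end. Capitals mark the letters of 1 of 6 motifs searched on both strands: the ETS core CCGGAAG, the NRF1 site GCGCATGCG, the CCAAT box, the GC box GGGCGG, the TATA box TATAAA and the YY1 core AAGATGGCG. A match on the minus strand shows as its reverse complement.

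Glyr1/Ubn1: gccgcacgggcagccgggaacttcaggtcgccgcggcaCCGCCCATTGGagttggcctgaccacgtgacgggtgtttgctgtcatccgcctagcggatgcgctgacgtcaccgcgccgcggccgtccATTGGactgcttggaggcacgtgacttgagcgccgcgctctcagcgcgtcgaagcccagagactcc
Bag1/Chmp5: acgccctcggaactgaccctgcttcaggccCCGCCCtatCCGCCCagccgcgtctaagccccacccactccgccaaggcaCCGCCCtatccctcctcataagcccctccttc
Safb2/Safb: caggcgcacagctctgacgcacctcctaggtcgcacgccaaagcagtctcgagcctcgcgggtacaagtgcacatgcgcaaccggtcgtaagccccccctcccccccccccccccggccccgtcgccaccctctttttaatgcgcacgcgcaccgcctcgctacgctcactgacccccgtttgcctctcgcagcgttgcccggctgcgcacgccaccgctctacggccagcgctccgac
Slc39a7/Rxrb: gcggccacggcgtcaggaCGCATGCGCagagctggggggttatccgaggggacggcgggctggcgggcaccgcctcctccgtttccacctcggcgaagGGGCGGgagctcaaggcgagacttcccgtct
Pcid2/Cul4a: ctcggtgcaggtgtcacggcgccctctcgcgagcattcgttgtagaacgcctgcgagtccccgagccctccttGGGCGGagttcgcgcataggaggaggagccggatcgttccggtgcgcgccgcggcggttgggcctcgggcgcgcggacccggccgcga
1810024B03Rik/Snrnp200: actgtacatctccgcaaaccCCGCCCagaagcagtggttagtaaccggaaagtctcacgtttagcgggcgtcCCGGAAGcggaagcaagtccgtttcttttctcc
Rbak/Spdye4b: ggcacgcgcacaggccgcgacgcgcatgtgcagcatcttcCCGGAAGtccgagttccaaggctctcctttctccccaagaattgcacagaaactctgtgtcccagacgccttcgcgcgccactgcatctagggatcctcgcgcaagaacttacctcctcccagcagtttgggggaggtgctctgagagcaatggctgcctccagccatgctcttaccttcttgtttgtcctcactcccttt

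These stretches lie outside both annotated bodies, at chr16:5049864-5050056, chr4:40948295-40948406, chr17:56584586-56584824, chr17:34031683-34031811, chr8:13105460-13105620, chr2:127208281-127208385 and chr5:143180776-143181016, in the order printed. GC boxes were found in 5 of the 7, 3 of them between Bag1 and Chmp5. The ETS core was found in both pairs with 1 covered partner. None of the 6 motifs was found between Safb2 and Safb. A match is a run of letters and not a measured binding site.

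Over all 1130 shared starts, the 300 bp around the midpoint between the starts had a median GC content of 63.3%, against 58.3% around all 20780 autosomal coding starts. The ratio of observed to expected CpG had medians of 0.849 and 0.605. The ETS core occurred in 25.4% of the shared windows and 11.7% of all windows, the GC box in 62.7% and 46.3%, the NRF1 site in 3.81% and 2.11%, and the YY1 core in 4.87% and 2.23%. The TATA box was the rarer motif at shared starts, with 4.16% against 10.7%, and the CCAAT box had 35.8% against 36.2%. Starts of the 5102 genes covered to at least 20% in replicate 2, paired or not, gave shares near those of the pairs: 23.8% for the ETS core, 64.1% for the GC box and 4.63% for the TATA box, with a median GC content of 63.3%. Within the pairs, the ETS core occurred in 32.4% of the 241 windows with both genes at 20% in replicate 2, in 28.9% of the 491 with 1 gene and in 16.8% of the 398 with neither. In replicate 1 the same shares were 33.3% of 27, 30.1% of 282 and 23.5% of 821. With windows of 200 bp this order held in replicate 2, with 24.5%, 21.6% and 12.3%, but not in replicate 1, with 18.5%, 23.4% and 17.4%.

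The deposited lists held 32098 peaks over 28.5 Mb in replicate 1 and 58505 over 79.4 Mb in replicate 2, so replicate 2 gave higher coverage almost throughout. The lists hold no read counts, the sequencing depth is unknown, and no peak means that none was called, not that the mark was missing. Of 10 macrophage markers, 7 and 10 were covered to at least 20% in replicates 1 and 2. No marker of T cells (5), B cells (4), neutrophils (4) or fibroblasts (4) reached 20%, and the 1 with any peak was the T cell adaptor gene Lat, at 10.4% in replicate 2. None of these markers belongs to a divergent pair.

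For each gene, the percent of its body under peaks was taken as its level, and a gene at 20% or more is here called covered. In replicate 1, 336 of the 2260 paired genes (14.9%) were covered, where 8.06% of all autosomal coding genes were. In replicate 2, 973 (43.1%) were covered, where 24.6% of all were. All 336 genes of replicate 1 were among the 973 of replicate 2. The same nesting held for coding genes at large, where 1669 of the 1674 covered in replicate 1 (8.03% of all genes) were covered in both replicates. At least 1 peak touched 1154 paired genes (51.1%) in replicate 1 and 1508 (66.7%) in replicate 2, against 28.0% and 36.6% of the other coding genes.

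The difference in share was present from 2 to 100 kb of gene length in both replicates. Of paired genes of 5 to 10 kb, 22.8% and 59.0% were covered in replicates 1 and 2, against 6.06% and 19.6% of other coding genes. At 20 to 50 kb the shares were 17.5% and 50.5% against 11.8% and 32.8%. It was not seen at the ends of the range. Of 123 paired genes of 100 to 200 kb, 0 and 18 (14.6%) were covered, against 2.55% and 14.5% of others. Of 118 paired genes under 2 kb, 0 and 2 were covered, the latter being 1.69% against 3.21% of others, and of 56 paired genes over 200 kb, 0 and 2, the latter being 3.57% against 3.46%. Once a gene had a peak, its median coverage was 11.7% and 30.0% in pairs and 10.6% and 26.7% elsewhere. The share of genes with any peak thus separated paired from other genes more than the extent of coverage within them did.

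Both partners were covered in 27 pairs (2.39%) in replicate 1 and 241 (21.3%) in replicate 2. Exactly 1 partner was covered in 282 pairs (25.0%) and 491 (43.5%), and neither in 821 (72.7%) and 398 (35.2%). In both replicates, pairs with a single covered partner outnumbered pairs with both. With 14.9% and 43.1% of paired genes covered, unrelated partners would give this order too, so the order alone says nothing about agreement. Close neighbours in other orientations, with facing ends at most 1 kb apart, were measured in the same way. Among 573 tandem neighbours, which read in the same direction, both genes were covered in 1.92% and 15% in replicates 1 and 2. Among 965 convergent neighbours, which read toward each other, the shares were 1.66% and 19.1%. Single genes were also covered less often there: 13.2% and 36.5% of tandem and 12.6% and 39.2% of convergent genes, against 14.9% and 43.1% of divergent ones.

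**Figure D1:**
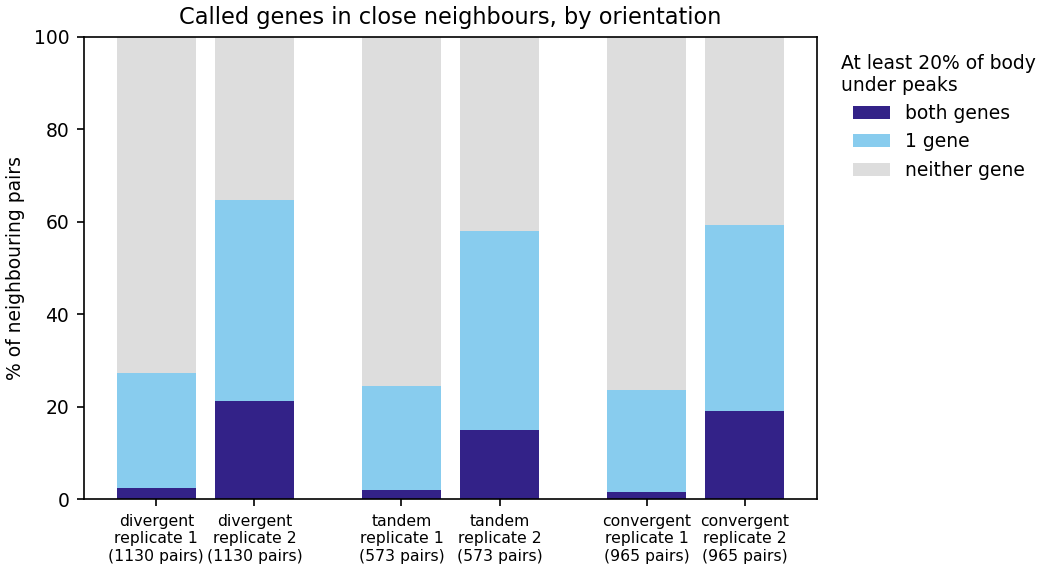
Percent of neighbouring pairs (vertical axis) with both genes, 1 gene or neither gene covered to at least 20% of the body by H3K36me3 peaks, for divergent, tandem and convergent neighbours in each replicate. Both genes were covered in 2.39% and 21.3% of divergent pairs in replicates 1 and 2, and the segment for 1 gene is taller than the segment for both genes in all 6 bars. Unrelated partners would give that order too at these shares of covered genes.

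Coverage of 1 partner was only weakly related to coverage of the other. In replicate 1, the partner of a covered gene was covered in 16.1% of cases and the partner of an uncovered gene in 14.7%. In replicate 2 the shares were 49.5% and 38.2%. Spearman's rho of the coverage of both partners over the 1130 pairs was 0.0938 in replicate 1 and 0.151 in replicate 2. The same rho was 0.0971 and 0.158 in tandem neighbours and 0.231 and 0.292 in convergent ones. Neighbours share a library and chromosome surroundings, and tandem or convergent neighbours can also share a peak across their facing ends.

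By contrast, the coverage of a paired gene in replicate 1 ranked much as in replicate 2, with a rho of 0.848 over the 2260 genes. The difference between partners also kept its rank, with a rho of 0.830 over the pairs. In 195 pairs the partners differed by at least 20 percentage points in both replicates, and the same partner was higher in all 195. Of 824 pairs with some difference in both replicates, 736 (89.3%) had the same partner higher. The replicates thus mostly had the same member of a pair higher, while the partners themselves were only weakly ranked alike.

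**Figure D2:**
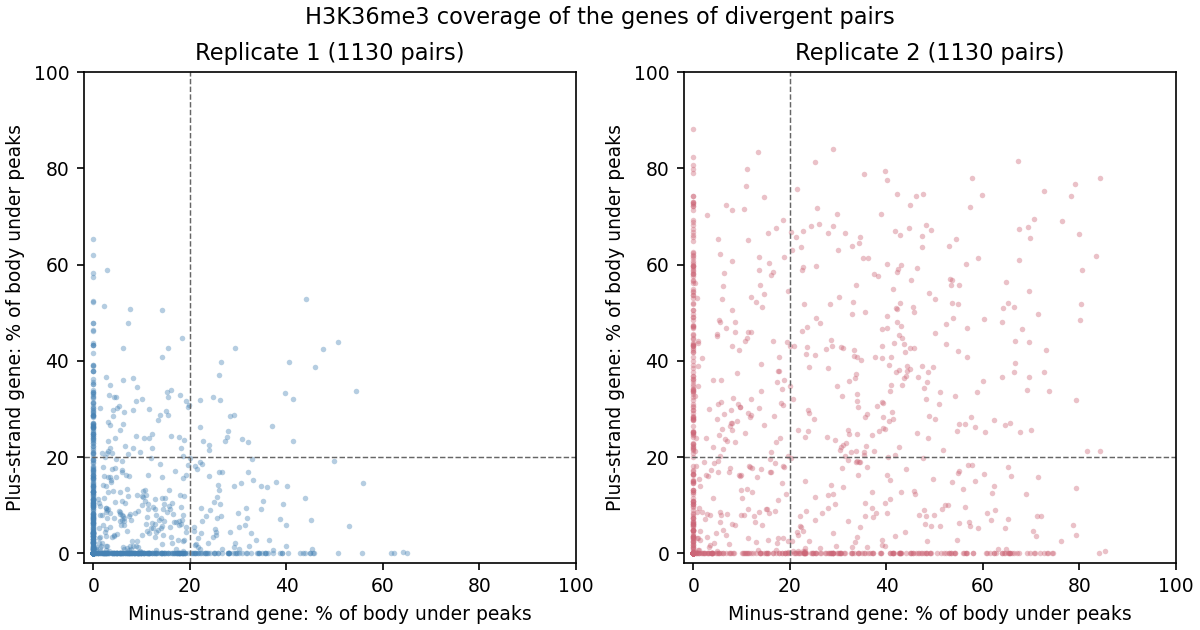
Percent of the body under peaks for the minus-strand gene (horizontal axis) and the plus-strand gene (vertical axis) of each of 1130 divergent pairs, 1 point per pair, in each replicate; dashed lines mark 20%. Points lie along both axes as well as in the middle, with Spearman's rho of 0.0938 in replicate 1 and 0.151 in replicate 2.

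The weak agreement was not limited to short genes or to pairs with further neighbours. Among 850 pairs with both genes of at least 5 kb, 26 and 201 had both genes covered, and rho was 0.100 and 0.146. Among 687 pairs with no other coding gene touching a body, 18 and 134 had both covered, and rho was 0.137 and 0.172. In pairs with 1 covered partner, the covered gene was the longer one in 130 of 282 (46.1%) and 234 of 491 (47.7%). The other partner had no peak at all in 150 of the 282 and 272 of the 491, and it was at least 5 kb long in 110 and 198 of these. Of the 282 pairs with 1 covered partner in replicate 1, 172 kept that single partner in replicate 2 and 110 gained the other. In 164 pairs neither body had a peak in either replicate.

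The pairs were also split by the number of bases between the bodies, with all overlapping pairs in 1 class. In replicate 2, both genes were covered in 21.8% of pairs with overlapping bodies, 24.3% of those with up to 100 bp between them, 19.8% of those over 100 and up to 300 bp, and 16.1% of those over 300 and up to 1000 bp. In replicate 1 the same classes gave 1.66%, 2.66%, 3.89% and 0.806%, the last from 1 of 124 pairs.

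In the 27 pairs with both genes covered in both replicates, coverage of the 54 genes ran from 21.5% through a median of 29.3% to 54.4% in replicate 1, and from 28.4% through 62.5% to 84.3% in replicate 2. The partners differed by a median of 6.60 percentage points in replicate 1 and 10.9 in replicate 2. Another coding gene touched 9 of these 27 pairs.

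Sf3b3 and Cog4 were the pair whose less covered partner was highest by the mean of the replicates, though in neither replicate alone. Sf3b3 (chr8:110810239-110846787, minus strand), which encodes a subunit of the SF3b splicing complex, had 47.5% in replicate 1 and 79.0% in replicate 2. Cog4 (chr8:110846600-110882227, plus strand), which encodes a subunit of a Golgi tethering complex, had 42.4% and 76.8%. Their bodies overlap at the starts, and the nearest peaks on either side left a gap of 7.24 kb in replicate 1 and 5.84 kb in replicate 2. These flanking peaks had enrichments over background of 3.25 and 3.12 in replicate 1 and of 4.51 on both sides in replicate 2, by the authors' peak caller. In each replicate the partners were within a few points of each other.

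Ncstn, which encodes the gamma-secretase subunit nicastrin, had 50.6% and 70.6% in replicates 1 and 2. Its partner Copa, which encodes the alpha subunit of the COPI vesicle coat, had 44.0% and 69.4%. Entr1, an endosomal trafficking gene, had 44.0% and 72.6%, and Pmpca, which encodes the alpha subunit of the mitochondrial processing peptidase, had 52.8% and 75.2%. Entr1 is 6.51 kb and Pmpca 7.78 kb long, and another coding gene touches this pair. Both pairs were named for a high less covered partner, so high coverage of both genes follows from the choice.

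Dtx3l encodes a ubiquitin ligase and had 40.6% and 78.2%. Parp9, whose product forms a complex with that of Dtx3l and which like it is an interferon-induced gene, had 39.8% and 74.3%. Psmb9, an immunoproteasome subunit gene, had 37.1% and 46.2%, while its partner Tap1, a subunit of the peptide transporter for antigen presentation, had 26.5% and 74.3%. These cells had received no stimulus, and all 4 genes were covered in both replicates. Psmb9 was the higher partner in replicate 1 and Tap1 in replicate 2.

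Safb2 had 54.4% and 84.3%, and Safb had 33.7% and 78.0%. The genes encode related scaffold attachment factors that bind DNA and RNA. Glyr1, which encodes a nucleosome-binding protein with a PWWP domain, had 41.3% and 76.3%, and Ubn1, a subunit of the HIRA histone chaperone complex, had 32.0% and 69.1%. Bag1, a co-chaperone of Hsp70, had 39.6% and 79.8%, and Chmp5, a subunit of the ESCRT-III membrane remodelling complex, had 33.2% and 66.4%. Dhrs1, a short-chain dehydrogenase gene, had 45.8% and 67.4%, and Nop9, a ribosome assembly gene, had 38.6% and 61.0%, with another coding gene touching them. The minus-strand partner was the higher one in both replicates in each of these 4 pairs.

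By the mean of the replicates, though in neither alone, the widest difference among pairs with both genes of at least 5 kb was in Washc5/Nsmce2. Washc5 (chr15:59331997-59374167, minus strand), a subunit gene of the WASH complex of endosomes, had 64.2% and 85.3%. Nsmce2 (chr15:59374247-59601684, plus strand), a SUMO ligase gene of the SMC5/6 complex, had 0.181% and 0.432%. Nsmce2 is 227 kb long, with its first peak 5.14 and 4.70 kb from its start in replicates 1 and 2, and the starts are 79 bp apart.

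1810024B03Rik (chr2:127186355-127208280, minus strand), named only by a cDNA clone, had no peak in either replicate over 21.9 kb. Its partner Snrnp200 (chr2:127208386-127240451, plus strand), which encodes the helicase that unwinds the U4/U6 RNAs in the spliceosome, had 58.2% and 88.3%. The peaks began inside Snrnp200 and none crossed to the other side of the shared start, as the map of peaks at these pairs shows.

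**Figure D3:**
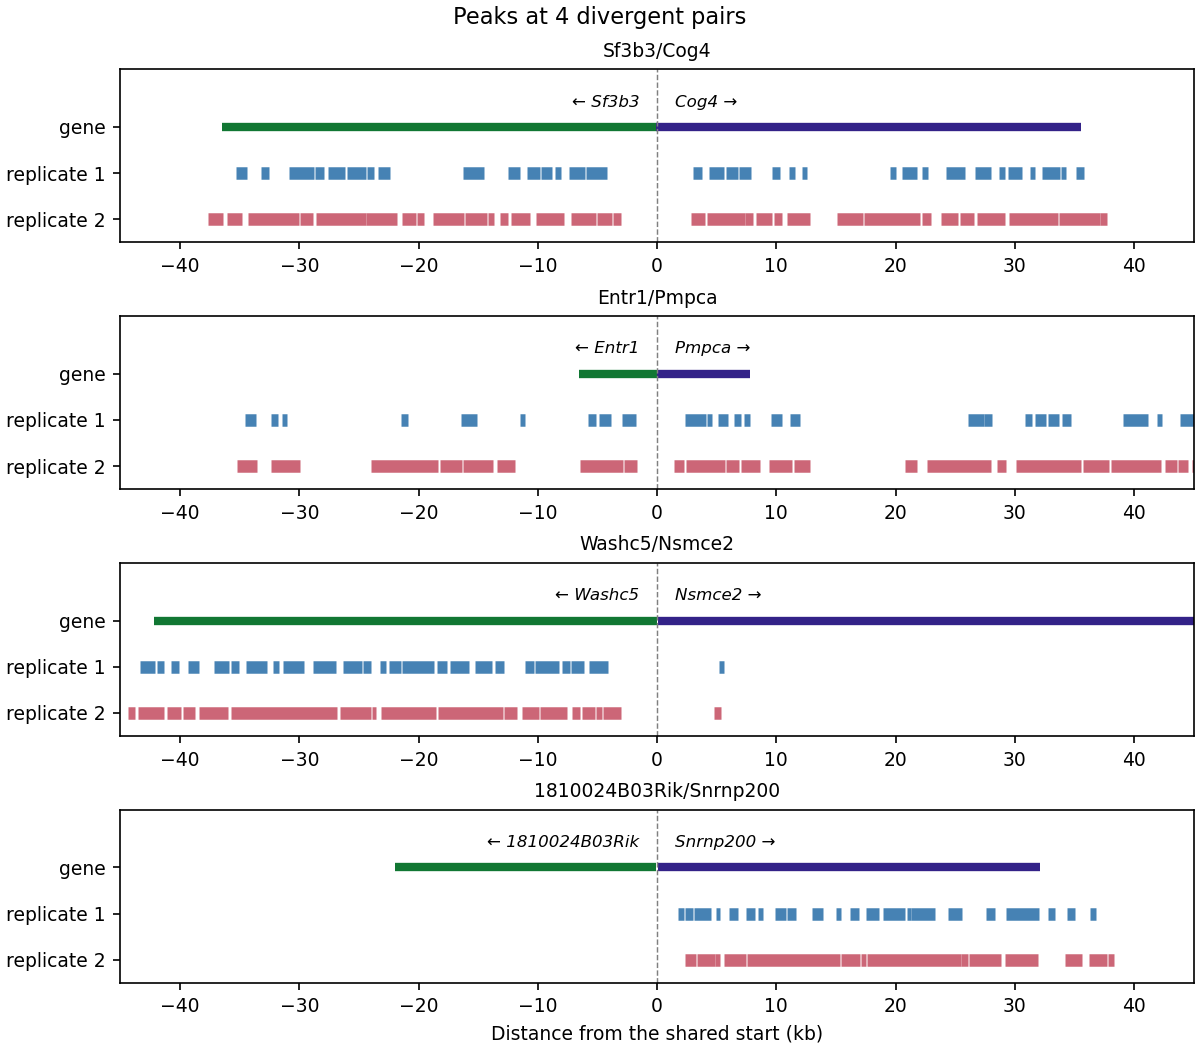
Gene bodies (top row of each panel, arrows give the direction of transcription) and H3K36me3 peaks of replicates 1 and 2 at 4 divergent pairs, by distance in kb from the midpoint between the annotated starts; the view stops at 45 kb on either side and Nsmce2 runs beyond it. Sf3b3/Cog4 and Entr1/Pmpca carried peaks on both sides, and at Washc5/Nsmce2 and 1810024B03Rik/Snrnp200 nearly all peaks within the partners lay on 1 side.

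Other pairs with a single covered partner joined genes of as many kinds. Erp29, an endoplasmic reticulum chaperone gene, had 62.3% and 76.2%, and its partner Tmem116 had 0 and 2.52%. Ptcd3, which encodes a protein of the mitochondrial ribosome, had 61.7% and 79.2%, and Polr1a, the largest subunit of RNA polymerase I, had 0 and 3.84%. Ddb1, an adaptor gene of the Cul4 ubiquitin ligases, had 61.9% and 83.5%, and Tkfc, a triose and dihydroxyacetone kinase gene, had 0 and 13.4%. In each, the less covered partner had no peak in replicate 1 and a few percent or more in replicate 2.

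Rbak, which encodes a zinc finger repressor that binds the retinoblastoma protein, had 55.7% and 69.8%, and Spdye4b, of the Speedy family of cell cycle regulators, had no peak over 24.1 kb. The uncovered partner was the longer gene, as Rbak spans 8.59 kb.

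In pairs with 1 gene shorter than 5 kb, the largest differences had a short gene without a peak beside a longer covered one. Ssna1 (1.4 kb) had no peak beside Anapc2, a subunit gene of the anaphase-promoting complex, at 43.2% and 82.3%. Arl16 (2.74 kb), a small GTPase gene, had none beside Hgs, an ESCRT-0 gene, at 52.2% and 73.1%. Pet100 (4.30 kb), a cytochrome oxidase assembly gene, had none beside Xab2, a splicing factor gene, at 50.7% and 74.4%. For these 3 short genes, absence of a peak and the gap around the start cannot be told apart. Short length did not always go with an absence of peaks: of 210 paired genes of 2 to 5 kb, 39 had a peak in replicate 1 and 109 (51.9%) in replicate 2.

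No peak in either replicate lay within 500 bp of the midpoint of any of the 1130 pairs or touched the stretch between the starts. A count of 0 of 1130 allows a share of up to 0.265% (3 counts of the total). Over all autosomal coding starts, 0.188% and 0.496% lay under a peak in replicates 1 and 2. Within 500 bp of the 18520 other coding starts there was a peak at 62 (0.335%) and 165 (0.891%). Leaving out starts inside the body of another coding gene reduced these to 18 (0.106%) and 63 (0.371%) of 16969, and 44 midpoints of pairs (3.89%) lay in another coding gene. The value for replicate 1 is under the limit that 0 of 1130 allows, so a lower share at shared starts was not detectable against it. The value for replicate 2 is above that limit. Limited to covered genes, the same starts had a peak at 5 of 1259 (0.397%) and 23 of 3806 (0.604%), whereas the pairs include uncovered genes. Whether shared starts differ from other starts was not tested.

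Within 1 kb of the midpoint, a peak lay at 1 pair in replicate 1 and 4 in replicate 2. 4930442H23Rik/Dapk3 had it in both replicates, and Htra2/Aup1, Ybey/Mcm3ap and Mrpl43/Twnk in replicate 2 only. The bodies overlap in all 4 pairs. Within 2 kb, there was a peak at 24 pairs (2.12%) and 109 pairs (9.65%).

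The peak-free gap holding the shared start was measured in pairs with a peak in both bodies, from the end of the nearest peak on the left to the start of the nearest on the right. In replicate 1 it had a median of 19.1 kb over 327 pairs, with quartiles of 11.4 and 30.1 kb and a range from 4.14 to 201 kb. In replicate 2 the median was 13.4 kb over 545 pairs, with quartiles of 7.91 and 24.8 kb and a range from 2.61 to 423 kb. It was under 5 kb in 4 and 45 pairs. Of 324 pairs measured in both replicates, 293 (90.4%) had the narrower gap in replicate 2, which also had more and longer peaks. The rank of a gap was shared by the replicates, with a rho of 0.847 over these 324 pairs.

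**Figure D4:**
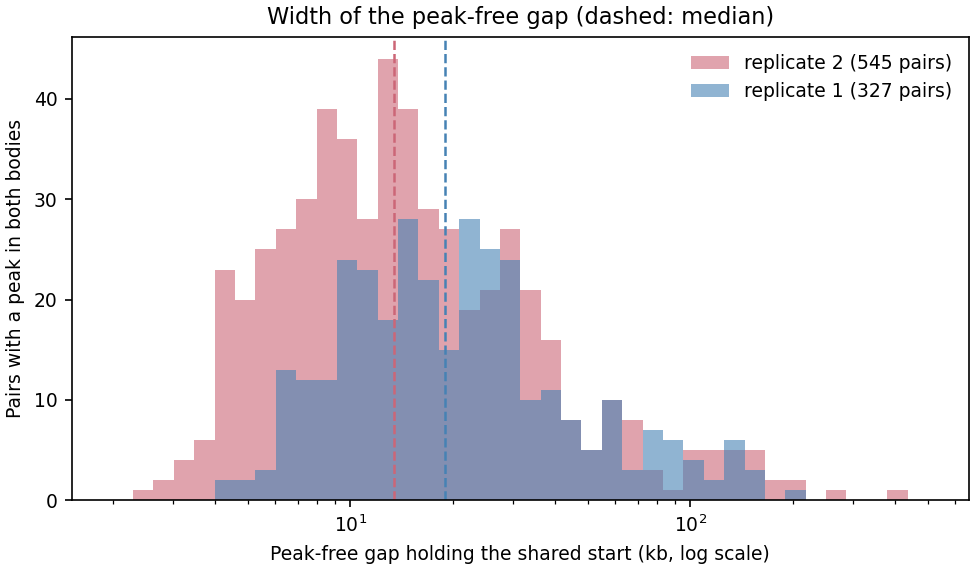
Number of divergent pairs (vertical axis) by the width of the peak-free gap holding the shared start (horizontal axis, kb, log scale), for pairs with a peak in both bodies in each replicate; dashed lines are medians. The median was 19.1 kb in replicate 1 (327 pairs) and 13.4 kb in replicate 2 (545 pairs), and no gap was under 2.61 kb.

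The nearer side of the gap, from the midpoint to the first peak, had medians of 5.20 and 3.67 kb, and the farther side had 13.1 and 9.15 kb. The widths of both sides were weakly ranked alike, with a rho of 0.180 and 0.281. Longer pairs had wider gaps: the rho of gap with summed gene length was 0.662 and 0.705 over pairs. A gap was measured only where a peak touched each body, so gene length limits its width. Part of this relation is thus built into the measure. In pairs with both genes covered the gap had a median of 9.45 kb (27 pairs) in replicate 1 and 8.45 kb (241 pairs) in replicate 2.

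Among the 27 pairs covered in both replicates, all 27 had the narrower gap in replicate 2. By the mean of the replicates, Entr1/Pmpca had the narrowest, 4.14 kb and 3.15 kb, followed by Dtx3l/Parp9 with 5.41 and 4.21 kb and Psmb9/Tap1 with 5.68 and 4.58 kb. In replicate 2 alone, Bag1/Chmp5 with 3.75 kb and Safb2/Safb with 4.08 kb were narrower than the last 2. Slc39a7/Rxrb, a zinc transporter gene and a retinoid X receptor gene, had 5.76 and 4.90 kb. At the other end, Git2/Ankrd13a had 21.9 and 20.1 kb and Pcid2/Cul4a had 21.2 and 18.9 kb. At Pcid2/Cul4a the first peak lay 14.2 and 13.7 kb into Cul4a, which encodes a scaffold of ubiquitin ligases, and 6.77 and 5.07 kb into Pcid2, an mRNA export gene. The gap there was thus lopsided in both replicates, toward the same gene.

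The distance from a paired gene's own start to its first peak was set beside that of other genes of the same length. At 5 to 10 kb it had medians of 4.07 kb in pairs and 4.10 kb elsewhere in replicate 1, and of 3.17 kb in both in replicate 2. For genes of 20 to 50 kb the medians were 10.3 against 12.0 kb and 7.70 against 8.27 kb. The medians lay farther apart for longer genes, being lower in pairs: 18.6 against 28.6 kb and 14.8 against 19.1 kb for genes of 50 to 100 kb, and 45.2 against 65.9 kb and 26.6 against 42.1 kb for genes of at least 100 kb.

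**Figure D5:**
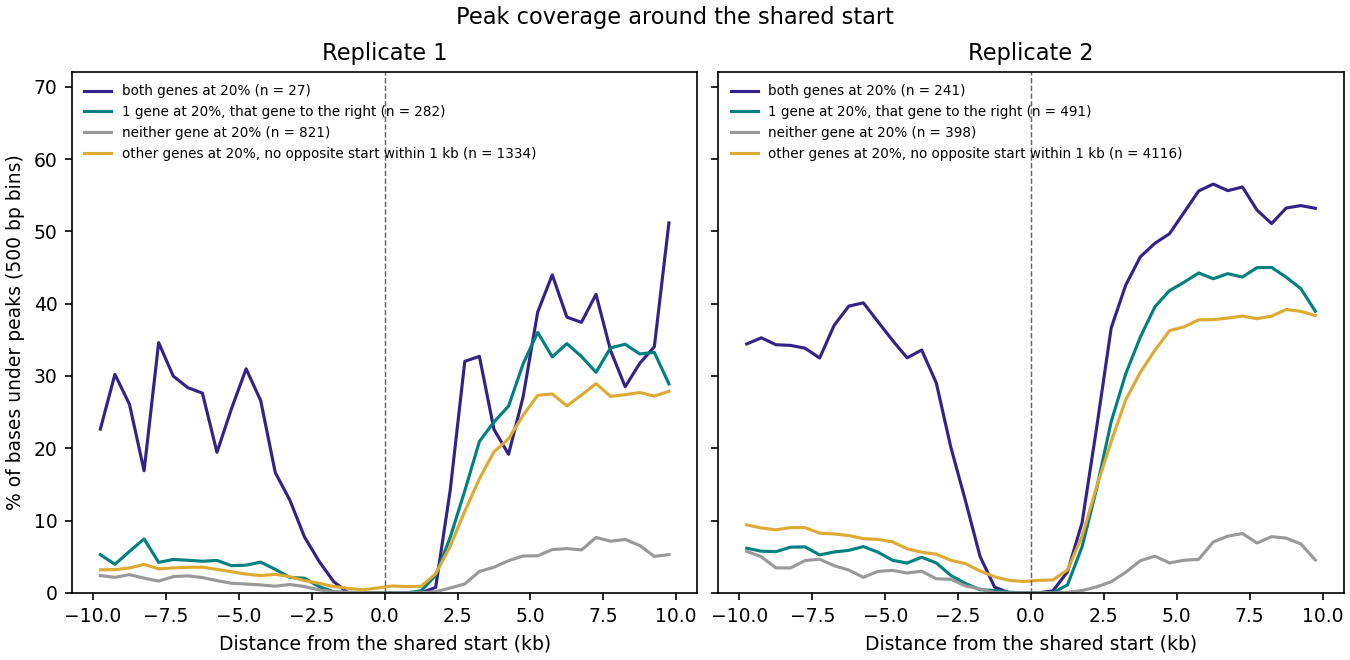
Percent of bases under peaks (vertical axis) in 500 bp bins to 10 kb on either side of the midpoint between the starts (horizontal axis, kb), per replicate, for pairs with both genes, 1 gene (turned to the right) or neither gene covered, and around starts of other covered genes with no opposite start within 1 kb. Pairs were turned with the more covered gene to the right, so the sides are not strands. All 3 pair curves are at or near 0 at the midpoint, and on the left at 4.5 to 5 kb the curve for both genes reached 31.0% and 34.9% in replicates 1 and 2.

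In the profile, pairs with both genes covered rose on either side of a trough of 0% over the 500 bp on each side of the midpoint. Pairs were turned with the more covered gene to the right, so the sides do not stand for strands. In the bin from 5 to 5.5 kb from the midpoint, coverage in replicates 1 and 2 was 38.8% and 52.6% on the right. On the left it was 25.5% and 37.5%. Other covered genes with no opposite start within 1 kb had 27.3% and 36.8% in that bin of their bodies. They were not sorted against a partner, so neither side of the sorted pairs can be ranked against them. The left is the side of the less covered gene in pairs. There, the bin from 4.5 to 5 kb held 31.0% and 34.9% in pairs with both genes covered. Upstream of the other covered genes it held 2.59% and 7.06%. Pairs with 1 covered gene had 3.82% and 4.50% on the side of the uncovered partner in that bin. These classes and the sides were chosen by coverage, so the height on each side is a description.

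Gene groups were drawn by symbol. Of 78 genes for the mitochondrial ribosome, 33 (42.3%) were in divergent pairs, against 10.9% of all coding genes. Of these 33, 4 were covered in replicate 1 (12.1%) and 19 in replicate 2 (57.6%), where 14.9% and 43.1% of all paired genes were, and 8 had no peak in either. Mrpl30 had 23.4% and 35.7% beside Mitd1, at 27.2% and 60.1%, and Mrps7 had 0 and 48.6% beside Gga3, an adaptor gene of Golgi vesicles, at 34.3% and 60.1%. Mrpl14 and Mrpl57 had no peak, nor had their partners Tmem63b and Ska3.

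Of 103 respiratory chain genes, 36 (35.0%) were paired, and 11 (30.6%) and 25 (69.4%) of them were covered. Sdha, the catalytic subunit of succinate dehydrogenase, had 39.3% and 64.6%, and its partner Ccdc127 had 10.2% and 26.7%. Ndufb5, a complex I subunit gene, had 19.6% and 37.7% beside Mrpl47, at 33.0% and 48.7%, so this pair joins both mitochondrial groups. Ndufa5 and its partner Asb15 had no peak.

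Of 11 paired proteasome genes, 4 (36.4%) and 9 (81.8%) were covered and each had a peak in at least 1 replicate. Psmb1, a core subunit gene, had 19.5% and 48.8%, and its partner Tbp, the TATA-binding protein gene, had 30.3% and 54.2%. Of 15 paired genes for the cytosolic ribosome, 4 and 9 were covered, although 11 of the 15 are under 5 kb. Rpl9 had 0 and 42.3% beside the lipoate synthase gene Lias, at 20.6% and 58.6%. Rps27 and Rps27a had no peak, and their partners Rab13 and Clhc1 had none either.

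Of 9 paired translation factor genes, 3 and 8 were covered, and of 24 trafficking genes 5 and 18. Eif5b had 19% and 42.2% beside Txndc9, at 22.1% and 73.0%. Trappc11, a subunit gene of a vesicle tethering complex, had 30.7% and 70.0% beside Rwdd4a, at 14.6% and 25.5%. Of 12 paired RNA polymerase genes, 4 and 7 were covered, with Polr3a, the largest subunit of RNA polymerase III, at 45.1% and 84.3% beside the ribosomal gene Rps24, at 6.99% and 21.3%. In these groups the share covered in replicate 2 was from 58.3% to 88.9%, where 43.1% of all paired genes were covered.

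Of 23 paired chaperone genes, 8 (34.8%) and 11 (47.8%) were covered, the second share being near the 43.1% of all paired genes, and 1 and 6 of their partners were. Hsp90b1, the Hsp90 of the endoplasmic reticulum, had 43.3% and 65.7%, and its partner Ttc41 had no peak. Dnajc2 had 11.9% and 43.3% beside the proteasome ATPase gene Psmc2, at 19.7% and 34.9%. Hspa1a and Hspa1l, both genes of the Hsp70 family, had no peak.

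Several groups lay near or below the 14.9% and 43.1% of all paired genes. Of 31 paired genes drawn by DNA repair symbols, 5 (16.1%) and 11 (35.5%) were covered, and 9 had no peak. These symbols also drew Parp9, Poldip2 and the replicative helicase gene Mcm4, all covered in both replicates. The shares therefore describe the drawn list and not DNA repair genes alone. Of 18 paired genes for centrosomes and cilia, 1 (5.56%) and 6 (33.3%) were covered, and of 31 named Zfp for zinc fingers 2 (6.45%) and 15 (48.4%). Of 32 solute carriers, 5 (15.6%) and 15 (46.9%) were covered, and of 6 ubiquitin genes 1 and 3. Cep128 and Tshr had no peak in either partner. By contrast, the 10 interferon-related and immune genes lay above both shares, with 5 (50%) and 6 (60%) covered. Dtx3l, Parp9, Psmb9 and Tap1 were among those covered in both replicates. The list names these genes individually, and they are each other's partners in Dtx3l/Parp9 and Psmb9/Tap1, so they are not separate loci. No peak was found in either replicate in 3 of the 10, Trim46 and Trim7 among them.

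None of the 27 paired histone genes had a peak in either replicate, and neither had their partners, 26 of the 27 being under 5 kb. Histone genes had 27 of 67 members (40.3%) in pairs. They are near-identical copies in clusters, which can also affect where reads are placed. Of 5 genes drawn by the symbol Col, the 4 collagen IV genes in the pairs Col4a1/Col4a2 and Col4a3/Col4a4, which form basement membranes, had no peak in either replicate. The other, Col4a3bp, encodes a ceramide transfer protein and is not a collagen, and had 7.34% and 20.3%.

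Of 18 pairs well known as sharing a promoter, 17 met the rule. Both genes were covered in 2 of them in replicate 1 and 6 in replicate 2, 1 gene in 6 and 8, and neither in 9 and 3. Over all 1130 pairs, both genes were covered in 2.39% and 21.3% and neither in 72.7% and 35.2%. Hspd1, which encodes Hsp60, had 9.86% and 49.9%, and Hspe1, which encodes its partner Hsp10 and is 3.18 kb long, had 0 and 8.03%. Gart, a purine synthesis gene, had 2.24% and 26.0%, and Son, a splicing cofactor gene, had 51.4% and 68.3%. Mcm4, a subunit gene of the replicative helicase, had 22.1% and 36%, and Prkdc, the DNA-dependent protein kinase gene of 204 kb, had 0 and 1.26%. Ranbp1 had 1.30% and 69.7% and Trmt2a 30.1% and 65.6%, so replicate 1 called this pair unequal where replicate 2 placed both within a few points.

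Paics and Ppat, which both encode purine synthesis enzymes, had 12.4% and 40.7% for Paics and 0 and 1.75% for Ppat. Psmd13 had 21.8% and 61.6% beside the mitochondrial deacetylase gene Sirt3, at 3.38% and 13.6%. Vps52 had 15.3% and 63.0% beside Rps18, at 0 and 20.4%. In these 3 pairs the same partner was higher in both replicates.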

How the data were processed

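H3K36me3 ChIP-seq peaks of 2 biological replicates of unstimulated C57BL/6J bone marrow-derived macrophages were used as deposited, in mm10 coordinates per the labels. Of the 4 lists deposited, 2 hold the peaks of a single replicate, and the others are a pooled and a replicated list. Each deposited peak carries a fold enrichment (a ratio over background) and a −log10 q, both the authors' own values, used here only to describe or filter peaks within a list. Which aligner and peak caller were run is not given in the sources used here. The lists hold no read counts, so depth is unknown and limits on a count of 0 cover counting error only.

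Gene bodies ran from the outermost annotated start to the outermost end of each coding gene in GENCODE release M21, with 1 record per symbol. The percent of each body under peaks was computed per replicate, and 20% called a gene covered. Coordinates are 1-based. Sequences were read from the RefSeq GRCm38.p6 genome. Between starts, printed sequences come from pairs 100 to 300 bp apart. A map position of 0 is the midpoint between the starts.

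The pairs, the gene lists and the rules were chosen with earlier results of these data known. Named pairs were the 8 with the highest less covered partner, the 8 with the largest difference among pairs with both genes of at least 5 kb and the 3 largest among the rest, the 5 widest and 5 narrowest gaps among pairs covered in both replicates, listed textbook pairs, and up to 4 pairs of each of 16 gene lists drawn by symbol. Some pairs the rule takes are not reported here. The 4 pairs with a peak within 1 kb of the midpoint were named after their values were seen.

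No test was made, since there is 1 group and genes are not replicates. Alternatives were other peak filters and lists, other limits on coverage, distance, overlap, length and touching genes, another annotated start, and each replicate alone. The computation ran under Python 3.11.15 with pandas 2.3.3 and numpy 2.4.6, Spearman's rho came from scipy 1.17.1, and figures from matplotlib 3.10.9. Pair finding, coverage and the gap were tested on simulated data, and the other steps were not.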

Additional observations from a re-analysis of the deposited data

How the results depend on the processing

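The share of pairs with both genes covered moved with the peak list, the peak filter and the percent that calls a gene. Its mean over the replicates was 11.9%, with 2.39% to 21.3% when 1 replicate was left out, 24.3% with the authors' pooled list and 23.4% with their replicated list. The share with both covered among pairs with at least 1 covered gene was 20.8% on average, 8.74% to 32.9% when 1 replicate was left out, 35.5% with the pooled list and 35.3% with the replicated list. In replicate 1, keeping peaks with a −log10 q of at least 5 gave 0.0885% and 1.69% for these shares, calling genes from 10% gave 9.12% and 18.9%, and calling from 50% gave 0 for both. An enrichment of at least 3 gave 1.06% for the first. In replicate 2, calling from 50% gave 3.01% and 10.9%. The median gap of replicate 1 was 26.1 kb with a −log10 q of at least 5. With the measure limited to pairs whose genes were both covered, the replicates had medians of 9.45 and 8.45 kb. Limits on distance, overlap, length or touching genes, and the other annotated start, moved no share by over 1.5 times. The cause of these shifts was not tested. No paired analysis was possible because there is 1 group.

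Windows of 200 bp held the ETS core in 18.9%, the CCAAT box in 27.9%, the GC box in 50.7% and the YY1 core in 3.19% of shared starts. Over all starts the 200 bp shares were 9.76%, 28.0%, 40.8% and 1.83%, in the same order.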
